A study of Homo sapiens with 4 samples.

Results

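The matrix proteases and the plasminogen activator system were described from 9 genes that were fixed by name: the matrix metalloproteinases MMP1, MMP2, MMP3 and MMP14, the tissue inhibitors TIMP1, TIMP2 and TIMP3, urokinase (PLAU) and its receptor (PLAUR). Members were selected by gene symbol, with earlier results of these data known. All 9 were found by their Ensembl IDs among the 58226 gene IDs of the files. Expression was measured by RNA-seq of total RNA in U87MG, an established glioblastoma (GBM) cell line, and in R-U87MG, its derivative that is resistant to the alkylating drug temozolomide (TMZ). R-U87MG cells were maintained in medium with 50 μM TMZ and received non-targeting siRNA (si-NC) or siRNA against the deacetylase HDAC6 (si-HDAC6). Parental U87MG cells, for which no TMZ is stated, received si-NC or siRNA against the long non-coding RNA LINC00461 (si-LINC00461). The paper lists a single siRNA sequence for LINC00461 but a pool of sequences for the non-targeting control. Effects of that sequence on other transcripts were not tested. RNA was taken 72 h after transfection in all 4 conditions. Whether R-U87MG is clonal is not stated, and both lines grew in culture, without the stroma, vessels and immune cells that secrete much of the matrix protease of a tumour.

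Each condition has 1 library, so no difference below has a replicate check and no p-value is given. The libraries held 12596072 to 20027866 fragments, and 3 counts, taken as the smallest measurable level, were 0.150 to 0.238 CPM (the count of a gene relative to the total of its library). Log2 ratios are given with a 95% exact binomial (Clopper-Pearson) interval in parentheses, and the plot of levels shows such intervals for the CPM of the members. The intervals cover counting error only, because 1 library per condition gives no measure of variation between cultures or preparations. PCR copies of the same fragment are not separate molecules, so the intervals can be too narrow even for counting error. The siRNA targets were lower under their own siRNA, where HDAC6 had 67 counts against 296 in its control and LINC00461 had 73 against 363. Among the 8 markers fixed for glial tumour cells, VIM, CD44, EGFR and NES had at least 441 counts in every library, OLIG2 had 92, 115, 15 and 18 counts in the order R-U87MG si-NC, R-U87MG si-HDAC6, U87MG si-NC and U87MG si-LINC00461, and GFAP was at 0 in both R-U87MG libraries and at 5 and 13 counts in the U87MG libraries, and S100B and SOX2 had at most 4 counts anywhere. From U87MG si-NC to si-LINC00461 the 8 summed to 8574 and 5219 CPM, with VIM at 6327 and 3170 CPM and EGFR at 599 and 276 CPM. Of the 3 immune markers PTPRC had at most 3 counts and CD3E at most 1 in any library, whereas CD68, a lysosomal protein, was at 424 CPM in U87MG si-NC, 734 CPM in U87MG si-LINC00461 and 485 and 532 CPM in the R-U87MG pair. In the U87MG pair the 3 endothelial markers summed to 3.35 CPM under si-NC and 26.0 CPM under si-LINC00461, of which PECAM1 alone had 52 and 433 counts and CDH5 had 7 and 14. The 3 neuronal markers summed to 61.1 and 127 CPM in that pair, with RBFOX3 at 3 and 0 counts. The part of these markers in the results below was not tested. The U87MG libraries also held transcripts of pancreatic digestive enzymes that, except for CPB1, were nearly absent from the R-U87MG libraries. The values of these transcripts are given beside TIMP3.

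Matrix metalloproteinases are zinc enzymes that cut collagens, gelatin, proteoglycans and other proteins of the extracellular matrix. They are made as inactive zymogens, are activated outside the cell or on its surface, and are held in check by the TIMPs, which bind the active site. MMP14, an enzyme anchored in the plasma membrane, forms a complex with TIMP2 that captures the MMP2 zymogen for activation. Urokinase bound to its receptor turns plasminogen into plasmin, which cuts fibrin and can activate several metalloproteinases, and inhibitors of the serpin family block it. In GBM this machinery is known for its role in the invasion of brain tissue.

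All 9 are annotated as protein-coding genes in GENCODE 29 (GRCh38), and counts were taken over whole genes. Among the proteases MMP1 (ENSG00000196611) on chromosome 11 from 102789920 to 102798160 (minus strand) and MMP3 (ENSG00000149968) on chromosome 11 from 102835801 to 102843803 (minus strand) are neighbours. MMP2 (ENSG00000087245) lies on chromosome 16 from 55389700 to 55506691 (plus strand) and MMP14 (ENSG00000157227) on chromosome 14 from 22836557 to 22849027 (plus strand). Of the inhibitors TIMP1 (ENSG00000102265) lies on chromosome X from 47582313 to 47586789 (plus strand), TIMP2 (ENSG00000035862) on chromosome 17 from 78852977 to 78925387 (minus strand) and TIMP3 (ENSG00000100234) on chromosome 22 from 32801701 to 32863043 (plus strand). PLAU (ENSG00000122861) lies on chromosome 10 from 73909177 to 73917497 (plus strand) and PLAUR (ENSG00000011422) on chromosome 19 from 43646095 to 43670547 (minus strand).

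RefSeq promoters (GRCh38.p14) were used for 5 members, PLAU, PLAUR, MMP14, TIMP1 and TIMP3, and MMP1, MMP2, MMP3 and TIMP2 had no entry. Sequence upstream of TIMP3, TIMP1 and MMP14 is shown because their promoters reach outside the annotated gene, whereas those of PLAU and PLAUR lie within it. These 3 were at least 2-fold higher after LINC00461 knockdown, and so was PLAUR. The stretches end at the base before the annotated gene, on the plus strand. Capitals mark the GC box GGGCGG, the motif bound by Sp1, or its reverse complement.
TIMP3, chr22:32801455-32801700: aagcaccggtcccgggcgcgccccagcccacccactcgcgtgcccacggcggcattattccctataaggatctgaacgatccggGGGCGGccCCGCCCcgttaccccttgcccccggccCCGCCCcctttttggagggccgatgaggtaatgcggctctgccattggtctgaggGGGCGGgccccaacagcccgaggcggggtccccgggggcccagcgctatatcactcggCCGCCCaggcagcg
TIMP1, chrX:47582186-47582312: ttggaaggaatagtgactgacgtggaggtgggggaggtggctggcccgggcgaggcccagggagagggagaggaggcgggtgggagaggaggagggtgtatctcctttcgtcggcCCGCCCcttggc
MMP14, chr14:22836335-22836556: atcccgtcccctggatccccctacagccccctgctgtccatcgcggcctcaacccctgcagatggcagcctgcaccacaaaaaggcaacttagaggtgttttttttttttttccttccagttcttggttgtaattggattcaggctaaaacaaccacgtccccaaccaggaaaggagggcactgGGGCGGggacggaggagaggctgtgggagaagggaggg
Over the 250 bases before the start, on both strands, TIMP3 held 5 GC boxes and 26 CpG dinucleotides at a GC content of 72.4%. TIMP1 held 2 GC boxes, of which 1 is in the stretch shown, and 12 CpGs, and MMP14 held 1 and 7. The median of all 35116 promoters of the table was 11 CpGs, and 42.6% of them held at least 1 GC box, so the motif itself is common. PLAU has 2 annotated starts, of which the downstream start had 3 GC boxes and 24 CpGs and the upstream start had none and 4 CpGs.
The AP-1 site TGAGTCA, bound by JUN and FOS proteins, is less frequent and was in 4.20% of all promoters, and the variant TGAGTAA was in 2.21%. Among the members with an entry, PLAUR held the first and TIMP1 the second, each once, shown in capitals with the bases around them on the strand of the gene.
PLAUR, chr19:43670338-43670366, minus strand: tcacaactccaTGAGTCAgggccgagcca
TIMP1, chrX:47582324-47582352, plus strand: tggtgggtggaTGAGTAAtgcatccagga
The PLAUR match starts 186 bases before the start of transcription and the TIMP1 match 101 bases before it. The letters say nothing on whether a factor binds there.

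All 9 members were expressed at a mean CPM of at least 1 in every comparison and so passed the filter on low counts. MMP2, the gelatinase that cuts denatured collagen and type IV collagen of basement membranes, stood far above the other proteases. It was at 3234 CPM in R-U87MG si-NC, 3278 CPM in R-U87MG si-HDAC6, 3603 CPM in U87MG si-NC and 2983 CPM in U87MG si-LINC00461. Per exon length, the scale on which genes can be compared with each other, it ranked first of the 9 in all 4 libraries. It also had the narrowest span of the 9, with 0.27 between its highest and lowest log2 CPM, which is taken over library totals. With the scaling used for the ratios below, its log2 ratio between the si-NC libraries of R-U87MG and U87MG was −0.42, so the span depends on the scaling.

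MMP14 was the next protease, at 778 CPM, 751 CPM, 586 CPM and 1202 CPM in the same order of libraries. MMP3, stromelysin, which cuts proteoglycans and activates other metalloproteinases, was at 85.6 CPM, 89.9 CPM, 123 CPM and 138 CPM. The interstitial collagenase MMP1, which cuts fibrillar collagen, was the lowest protease member, with 168, 159, 82 and 472 counts or 10.1, 12.6, 4.09 and 26.6 CPM. MMP14 and MMP1 were thus highest in U87MG si-LINC00461 and lowest in U87MG si-NC, whereas MMP3 was higher in both U87MG libraries than in both R-U87MG libraries.
MMP1 and MMP3 lie on the minus strand in a cluster of 9 metalloproteinase genes on chromosome 11, from 102520508 to 102955734 (GRCh38). The other 7 genes of the cluster had at most 15 counts in any library. MMP12, macrophage elastase, had 13, 15, 1 and 12 counts and was named after its values were seen. Of the stretches of 50 bases in MMP3 transcripts, 2.88% also occur in MMP10, which had 4 to 9 counts, against 1133 to 2473 for MMP3.

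Of the inhibitors, TIMP1, which is soluble, was at 126 CPM in R-U87MG si-NC, 165 CPM in R-U87MG si-HDAC6, 111 CPM in U87MG si-NC and 650 CPM in U87MG si-LINC00461. The last value stands apart from the other 3. TIMP2, the partner of MMP14 in MMP2 activation, was at 256, 212, 544 and 671 CPM, so both U87MG libraries lay above both R-U87MG libraries. TIMP3, which is bound to the matrix and also inhibits ADAM proteases, had 46 and 23 counts in the R-U87MG libraries, for si-NC and si-HDAC6. In the U87MG libraries it had 11755 under si-NC and 26289 under si-LINC00461. In CPM these are 2.76 (2.02 to 3.69), 1.83 (1.16 to 2.74), 587 (576 to 598) and 1479 (1461 to 1497). TIMP3 had the widest span of the members, 9.63 on the log2 CPM scale, against 2.69 for MMP1 and 2.55 for TIMP1.
The protease urokinase was at 393, 439, 256 and 450 CPM, and its receptor, a surface protein held by a lipid anchor, was at 277, 288, 173 and 350 CPM. Both were lowest in U87MG si-NC and highest in U87MG si-LINC00461. Per exon length PLAU exceeded PLAUR by a ratio of 1.94 to 2.31 in the 4 libraries. With the length of the longest transcript in place of all exons, PLAUR ranked above PLAU in every library, so the order of this pair depends on the transcript in use.

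Per exon length the ranks of TIMP3 and TIMP1 spanned the most places. TIMP3 was last of the 9 in both R-U87MG libraries and at rank 3 in both U87MG libraries. TIMP1 was at rank 4 in both R-U87MG libraries, rank 6 in U87MG si-NC and rank 2 in U87MG si-LINC00461. The summed level of TIMP1 to TIMP4 was 643 TPM (counts per exon length, scaled to a fixed total) in R-U87MG si-NC, 717 in R-U87MG si-HDAC6, 1365 in U87MG si-NC and 3644 in U87MG si-LINC00461. TIMP3 made up 0.385% and 0.228% of it in the R-U87MG libraries and 39.5% and 36.6% in the U87MG libraries. TIMP1 held 52.3% and 61.3% in R-U87MG, 22.4% in U87MG si-NC and 48.1% in U87MG si-LINC00461. TIMP4, the remaining family member, made up 18.2%, 16.8%, 8.25% and 1.66%. These shares were taken over all exons only. With the length of the longest transcript, TIMP3 stayed last in both R-U87MG libraries but was at rank 4 in both U87MG libraries. In U87MG si-NC it then lay below TIMP2, at 404 against 472 TPM. The summed level of 23 metalloproteinases stayed between 3677 and 4037 TPM, so their ratio to the TIMPs was 5.72, 5.16, 2.90 and 1.11 in the same order. These are ratios of transcripts and do not measure protein or activity.

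**Figure D1:**
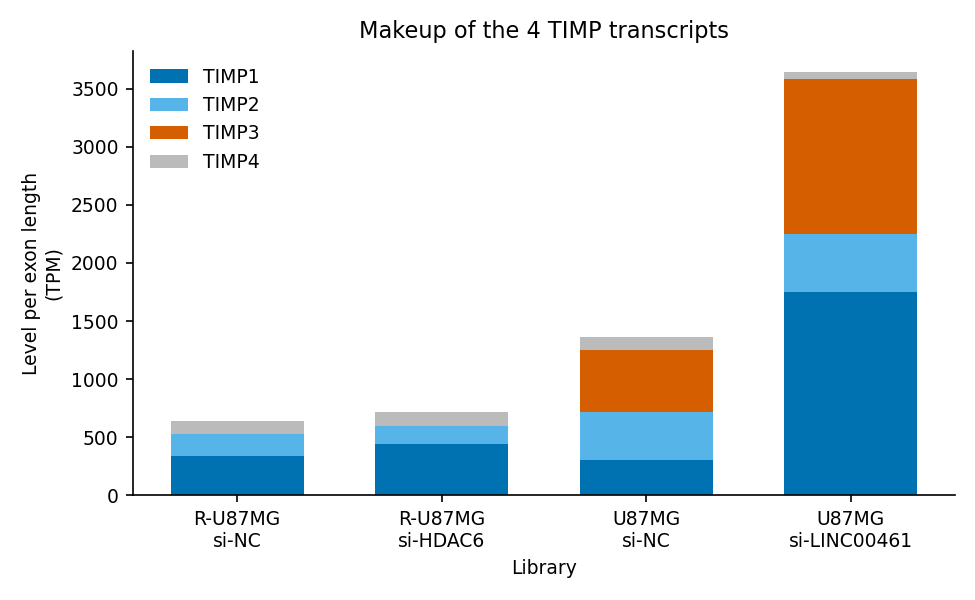
Stacked level per exon length, in TPM, of the 4 TIMP genes in each of the 4 libraries, with no error bars because each bar is 1 library. The bars sum to 643, 717, 1365 and 3644, and the TIMP3 segment is too thin to see in the R-U87MG bars and 39.5% and 36.6% of the U87MG bars.

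After HDAC6 knockdown in TMZ-resistant cells all 9 members were within 2-fold of the control. TIMP1 was higher by a log2 ratio of 0.38 (interval 0.29 to 0.47), from 2092 counts and, in the smaller knockdown library, 2073. PLAU was higher by 0.15 (0.10 to 0.20), TIMP2 lower at −0.28 (−0.35 to −0.21) and MMP14 lower at −0.06 (−0.10 to −0.02). These 4 are the members whose interval leaves out 0, and 30.3% of all genes compared did so in one direction or the other. TIMP3 had the lowest ratio, −0.59, but its 46 and 23 counts gave an interval of −1.40 to 0.14. MMP1, at 0.31 (−0.01 to 0.63), was not distinguishable from its control at this depth either.
MMP2 had a log2 ratio of 0.01 (−0.01 to 0.03), MMP3 of 0.06 (−0.05 to 0.17) and PLAUR of 0.05 (−0.02 to 0.11). The median of the members was 0.05 and that of all 13120 genes compared was −0.01. Among all genes 0.694% were at least 2-fold higher and 0.747% at least 2-fold lower, so 0 of 9 members is near what the share of all genes gives. Nor did any gene of the other lists reach 2-fold. These hold 5 further metalloproteinases, 9 genes of the plasminogen system, 7 inhibitors and activators, 14 ADAM and ADAMTS proteases, 9 other pericellular proteases and 14 transcription factors that passed the filter, and their medians lay between 0.02 and 0.07.

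After LINC00461 knockdown in parental U87MG, 5 of the 9 members were at least 2-fold higher than in the control and 0 were at least 2-fold lower. Of all 13210 genes compared, 5.42% were at least 2-fold higher and 8.17% at least 2-fold lower. The median log2 ratio of the members was 1.03, against −0.00 for all genes, 5% of which lay above 1.04. These are differences between 2 libraries, and the members were chosen with earlier results of these data known. The shares of all genes, here and below, are given as description only.
MMP1 differed most, with 82 control counts and 472 after knockdown, a log2 ratio of 2.71 (2.37 to 3.07) or 6.52-fold. Despite this ratio it was still the lowest of the 9 per exon length. MMP14 had 11737 and 21375 counts, a log2 ratio of 1.05 (1.02 to 1.08). MMP2 went the other way, with 72163 and 53032 counts and a log2 ratio of −0.26 (−0.27 to −0.24), and MMP3 had nearly equal counts of 2473 and 2446 and a ratio of 0.17 (0.09 to 0.25). The protease members thus differed from each other, the collagenase and the membrane enzyme being higher and the gelatinase slightly lower.
TIMP1 had 2228 and 11552 counts, a log2 ratio of 2.56 (2.50 to 2.63) or 5.90-fold. TIMP3 was 2.55-fold higher, at 1.35 (1.32 to 1.38), and TIMP2 differed by 0.32 (0.28 to 0.35). All 3 inhibitors were therefore higher, in unequal measure, whereas TIMP4, with 880 and 428 counts, had a ratio of −0.85 (−1.02 to −0.68).
PLAUR had 3459 and 6218 counts, a log2 ratio of 1.03 (0.97 to 1.09), and PLAU had 5123 and 7998, a ratio of 0.83 (0.78 to 0.88). PLAUR lies just inside the 2-fold threshold and PLAU just outside it. With the stricter rule that the whole interval lies above 2-fold, MMP1, TIMP1, TIMP3 and MMP14 remained, 4 of 9, against 2.88% of all genes compared. The interval of PLAUR crosses 2-fold.

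The other genes of the pathway were taken from fixed lists, which were also chosen with earlier results of these data known. In the plasminogen system 2 of 9 genes were at least 2-fold higher and 0 lower after si-LINC00461, with a median of −0.06. SERPINB2, an inhibitor of plasminogen activators that is mostly kept inside the cell, had 447 and 1855 counts, a log2 ratio of 2.24 (2.09 to 2.39). SERPINE2, an inhibitor of thrombin, urokinase and plasmin, had a ratio of 1.01 (0.96 to 1.06), and with total counts or DESeq2 size factors only 1 gene of the list reached 2-fold. The tissue-type activator PLAT differed by 0.25 (0.06 to 0.44).
Of the further metalloproteinases, 5 of 19 passed the filter, 2 were at least 2-fold higher and 0 lower, with a median of 0.27. These were MMP19, a secreted enzyme that cuts basement membrane proteins, at 1.38 (1.19 to 1.58), and MMP15, a membrane enzyme related to MMP14, at 1.33 (0.84 to 1.86). Matrilysin (MMP7) and the gelatinase MMP9 had at most 7 counts in any library and could not be compared. Among the inhibitors and activators 3 of 7 were higher and 0 lower, with a median of 0.59. TFPI2, a secreted Kunitz-type inhibitor of plasmin and other serine proteases, had 13482 and 73128 counts, a ratio of 2.63 (2.60 to 2.65). FURIN, the convertase that activates MMP14, was higher by 1.30 (1.24 to 1.36), and the broad inhibitor A2M, with 19 and 38 counts, by 1.17 (0.36 to 2.06).
The ADAM and ADAMTS proteases split evenly, with 3 of 16 higher, 3 lower and a median of 0.21. The aggrecanase ADAMTS5 had 224 and 1522 counts, a log2 ratio of 2.95 (2.75 to 3.16), and ADAM19 had a ratio of 1.34 (1.29 to 1.40). The procollagen proteinases ADAMTS14 and ADAMTS2 were lower, at −1.67 (−2.57 to −0.91) and −1.37 (−1.98 to −0.82). Among other pericellular proteases 3 of 10 were higher and 0 lower, with a median of 0.59, and all 3 are lysosomal cysteine cathepsins that can act outside the cell. CTSL had 6036 and 28009 counts, a ratio of 2.40 (2.36 to 2.44), CTSS, with 745 and 2202 counts, a ratio of 1.75 (1.63 to 1.87) and CTSK, with 1379 and 2785, of 1.20 (1.11 to 1.30). Of 14 transcription factors known at such promoters, ETS1, which had 5428 and 1100 counts, was at −2.12 (−2.21 to −2.02), ETS2 at −1.40 (−1.54 to −1.26), and FOSB, with 31 and 73 counts, at 1.41 (0.80 to 2.08). The other 11 stayed within 2-fold and the median of the 14 was 0.04, while upper-quartile scaling put 2 of the 14 at least 2-fold higher.

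The si-NC libraries of both lines were set against each other to describe the members in R-U87MG and in U87MG. This comparison shares 1 library with each of the others. Resistance, the TMZ in the medium and any difference between the 2 pairs of libraries cannot be told apart in it. All 9 passed the filter, 1 was at least 2-fold higher in R-U87MG and 2 were lower, against 11.2% and 15.0% of all 13349 genes compared. With total counts in place of TMM the split of all genes turned from 1494 higher and 2008 lower to 2399 higher and 1494 lower, and the median of all genes moved from 0.02 to 0.28.
TIMP3 was lower by far in R-U87MG, with 46 counts against 11755. Its log2 ratio was −7.98 (−8.44 to −7.58), or 252-fold lower (191 to 348), which was rank 34 from the lowest of the 13349 genes compared. TIMP2 was 2.56-fold lower, with 4254 and 10899 counts and a log2 ratio of −1.35 (−1.40 to −1.30). For both, the whole interval lay at more than 2-fold lower, as it did for 10.8% of all genes. TIMP1 had 2092 and 2228 counts and a ratio of −0.09 (−0.17 to −0.00), which turned to 0.18 with total counts.
Among the proteases MMP1 was higher in R-U87MG at 1.03 (0.65 to 1.44), MMP14 differed by 0.15 (0.11 to 0.18), MMP2 by −0.42 (−0.44 to −0.40) and MMP3 by −0.79 (−0.89 to −0.70). MMP1 lay at the threshold, with ratios of 0.989 under upper-quartile scaling and 0.995 with a pseudocount of 5, where it was no longer called. PLAU and PLAUR differed by 0.35 (0.30 to 0.41) and 0.42 (0.35 to 0.48), in the same direction and under 2-fold.
Of the lists, ADAM and ADAMTS proteases had 9 of 16 genes at least 2-fold lower in R-U87MG and 3 higher, with a median of −1.04, and with total counts these were 6 and 4 with a median of −0.77. ADAMTS2 had 3 counts in R-U87MG against 104, a log2 ratio of −4.90 (−7.41 to −3.52), ADAMTS9, a versican-cutting enzyme, was at −4.23 (−5.55 to −3.30), and ADAM8 at −2.67 (−2.83 to −2.52), while ADAMTS1 was at 2.21 (2.12 to 2.31). In the plasminogen system 2 of 9 were higher and 2 lower. SERPINB2 was at 2.29 (2.14 to 2.44) and PLGRKT, a plasminogen receptor, at 1.06 (0.78 to 1.36), whereas LRP1, an endocytic receptor that clears proteases from the cell surface, was at −1.92 (−1.94 to −1.90) and S100A10, which binds plasminogen at the surface, at −1.71 (−1.76 to −1.66). SERPINE2 was at −0.36 (−0.42 to −0.30) and PLAT at 0.09 (−0.10 to 0.29).
Of 7 inhibitors and activators, the convertase PCSK5 at −2.24 (−2.49 to −2.002) and the membrane-anchored inhibitor RECK at −1.61 (−1.81 to −1.41) were lower, A2M, with 52 and 19 counts, was higher at 1.43 (0.67 to 2.30), and TIMP4 was at −0.17 (−0.32 to −0.03). None of the 5 further metalloproteinases differed by 2-fold, although 1 was higher to that extent with total counts. Among pericellular proteases 3 of 9 were lower, namely CTSS at −2.21 (−2.47 to −1.97), the surface peptidase DPP4 at −1.65 (−1.76 to −1.54) and CTSB at −1.48 (−1.51 to −1.45), and 0 were higher, against 1 higher with total counts and 4 lower with upper-quartile scaling. Of the 14 transcription factors, 3 were higher and 4 lower, among them FOSB at 2.07 (1.51 to 2.70), FOSL2 at −1.56 (−1.61 to −1.51), JUN at −1.52 (−1.56 to −1.48) and JUNB at −1.43 (−1.55 to −1.31), and with total counts 4 were higher and 3 lower.

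The genes whose profile over the 4 libraries was most like that of a member were found among 13368 genes by the Euclidean distance between log2 CPM profiles centred on their own mean, with 4 libraries as the only points. For MMP1 these were AKAP6 (distance 0.11), IGFN1 (0.23) and CHGB (0.40), and for TIMP1 the nearest were HIST2H2BE (0.21) and LONRF2 (0.26). For TIMP3 they were CELA3A (0.70), PRSS2 (0.75) and REG1A (0.79), which encode a pancreatic elastase, a trypsinogen and a secreted pancreatic protein. Each of these 3 had 0 counts in both R-U87MG libraries, where TIMP3 had 46 and 23. Their log2 CPM there, and so their distance to TIMP3, depends on the pseudocount of 0.5 counts. Other pseudocounts were not tried for these distances.
A list of 20 genes of pancreatic acinar cells was then drawn up after these values were seen. In R-U87MG si-NC and si-HDAC6, 17 of its 20 genes were at 0, and CPB1 alone had 207 and 98 counts. The list summed to 213 and 102 counts there, or 12.8 and 8.10 CPM. In U87MG si-NC and si-LINC00461 it summed to 4116 and 7739 counts, or 206 and 435 CPM, with 0 of 20 genes at 0, which are 0.0206% and 0.0435% of the fragments. From si-NC to si-LINC00461 its genes had log2 ratios of 0.66 to 1.56 with a median of 1.05. The ratios of MMP14, PLAUR, TIMP3 and PLAU were 1.05, 1.03, 1.35 and 0.83, within that range. Of all 13210 genes compared, 1871 were at least 1.5-fold higher, so ratios of this size were not rare. The share of all genes within the range itself was not counted. TIMP3 alone had more counts than the 20 genes together in each U87MG library, and so did MMP14 and PLAU. PLAUR, with 3459 and 6218 counts, had fewer than the list in both. SCGB2A2, a secretory protein of mammary epithelium also noted after the values were seen, had 155 and 93 counts in the R-U87MG libraries and 0 in both U87MG libraries. The part of such transcripts in the results for TIMP3, MMP14, PLAUR and PLAU was not tested.

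Genes that overlap the members in the annotation had few counts. SYN3, on the strand opposite TIMP3, had 2, 1, 17 and 13 counts, SYN1, opposite TIMP1, had 10, 6, 2 and 12, and C10orf55, opposite PLAU, had 11, 6, 22 and 12. Of the stretches of 50 bases in the transcripts, 2.57% of those of MMP2 and 2.68% of those of TIMP2 are shared with an overlapping gene, AC007336.3 and CEP295NL, which had at most 10 and 5 counts. Those of MMP1, MMP14, TIMP1, TIMP3, PLAU and PLAUR are shared with no other gene.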

How the data were processed

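The 4 conditions were each sequenced by the authors as 1 strand-specific RNA-seq library. Per the submitters' processing notes, bcl2fastq, Trimmomatic 0.36 and HISAT2 were used with GRCh38.p13. The counting program, its annotation and its strand setting are not given in the sources used here. Each deposited value is an estimated count of an Ensembl gene times a constant of its library, 0.869 and 1.15 for the R-U87MG pair and 0.939 and 1.06 for the U87MG pair, so the pairs were scaled separately. Each value was divided by its factor and rounded, and 93.4% to 94.1% of the values above 0 lay within 0.02 of a whole number.

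Symbols, positions and exon lengths came from GENCODE 29 (GRCh38), which holds 57888 of the 58226 IDs, and promoters from RefSeq (GRCh38.p14). Pairs of libraries were normalized with TMM (edgeR 4.0.16, R 4.3.3) over the whole table. Log2 ratios were taken of counts plus 0.5 over effective library sizes, which understates the change of low genes. The filter was a mean CPM of 1 or more, and a call was a ratio of at least 2-fold. Levels per length were counts over the union of exons. The 95% intervals are Clopper-Pearson intervals. No condition was tested and no dispersion was fitted, since nothing was replicated. Scripts ran in Python 3.11.15 with numpy 2.4.6, scipy 1.17.1, pandas 2.3.3 and matplotlib 3.10.9 and were tested on simulated data.

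The 9 members and the gene lists were chosen with earlier results of these data known. The genes named are the members, at most 4 genes a list at least 2-fold changed, with the largest ratio first, MMP7, MMP9, PLAT, SERPINE2, SERPINB2 and TIMP4 in any case, and the 3 genes most like each of the 3 members with the widest span, except that results for some genes are not reported here. The pancreatic list and the authors' scaling as an alternative were added after the values were seen. Alternatives were total counts, DESeq2 1.42.0 size factors, upper-quartile scaling, pseudocounts of 0.1 and 5, thinning to the smallest library, other filters, other fold thresholds, intervals beyond 2-fold and, for levels per length, the longest transcript.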

Additional observations from a re-analysis of the deposited data

How the results depend on the processing

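No paired analysis was possible because each condition has 1 library, and for the same reason no library could be left out. The count of members called was 0, 5 and 3 for si-HDAC6, si-LINC00461 and the si-NC pair. At 1.5-fold it was 1 for si-HDAC6 (TIMP3, lower), and at 4-fold it was 2 for si-LINC00461 (MMP1 and TIMP1) and 1 for the si-NC pair (TIMP3). Under the other alternatives run the counts stayed within 1.5 times of these. Of 180 log2 ratios of members under other scalings, pseudocounts and thinning, 167 moved by less than their counting interval, 13 moved by more, and 2 changed side of 2-fold, both for MMP1 in the si-NC pair. Counts over all genes depended on the settings. For si-HDAC6, 91 higher and 98 lower became 2465 and 3050 without a filter, 16 and 16 at a mean CPM of at least 5 and also with intervals wholly beyond 2-fold, 352 and 330 at 1.5-fold, and 13 and 10 at 4-fold, and with a pseudocount of 5 the lower count was 43. For si-LINC00461, 716 and 1079 became 3799 and 4243 without a filter, 1871 and 2222 at 1.5-fold, 155 and 230 at 4-fold and 380 and 631 with intervals beyond 2-fold, and at a mean CPM of at least 5 the higher count was 442. For the si-NC pair, 1494 and 2008 became 4772 and 5793 without a filter, 3077 and 3346 at 1.5-fold and 288 and 757 at 4-fold, with 2399 and 1494 under total counts and 846 higher with intervals beyond 2-fold. The filters and thresholds change the genes compared or the rule itself, and for the pseudocount and the total counts the cause was not tested. Depth limits TIMP3 in R-U87MG and MMP1, whose intervals after si-HDAC6 were the widest of the members. They were −1.40 to 0.14 for TIMP3 and −0.01 to 0.63 for MMP1. The narrower intervals of MMP2, MMP3 and PLAUR also spanned 0.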
